A study of Homo sapiens with 12 samples.

Results

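The splicing factor families were followed across the 4 treatment groups of a mantle cell lymphoma xenograft experiment. Members were chosen by gene symbol alone: the serine/arginine-rich proteins (SRSF, 12 genes), the heterogeneous nuclear ribonucleoproteins (HNRNP, 23 genes), the SF3A (3 genes) and SF3B (6 genes) subunits, the U2AF proteins (3 genes), the pre-mRNA processing factors (PRPF, 11 genes) and the small nuclear ribonucleoprotein genes (SNRP, 13 genes). This gave 71 of the 18239 genes that had a probe set of their own on the array, and 229 of the 45259 probe sets that were annotated to one gene. Of the members, 70 were annotated as protein-coding and 1, SNRPD2P2, as a transcribed pseudogene. Each gene was read on its brightest probe set, by the mean of the 12 arrays, in RMA units on the log2 scale, so that a difference of 1 is a doubling of the signal.

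JEKO-1, an established mantle cell lymphoma line, was implanted subcutaneously in female CB17-SCID mice aged 6 to 8 weeks, which lack mature T and B cells but keep NK cells and macrophages. The combination group received acadesine at 400 mg/kg and rituximab at 10 mg/kg weekly, the acadesine group and the rituximab group each received that agent alone, and the control group received vehicle. Acadesine, a nucleoside that is converted to an AMP analog and activates AMPK, is described as daily in the labels and as given on 5 days a week in the methods, and rituximab is an antibody that binds the B cell antigen CD20. All tumors were collected 18 days after treatment began, 3 of each group of 6 mice were put on arrays, 1 tumor per array, and they are labeled as biological replicates; all of them come from 1 cell line.

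Splicing removes introns from pre-mRNA. The U1 and U2 small nuclear ribonucleoproteins (snRNPs) first mark the 5′ splice site and the branch point, with U2AF reading the 3′ splice site and SF3A and SF3B holding the branch point, and the tri-snRNP, built around PRPF proteins, then makes the spliceosome catalytic. SRSF proteins bind exons and mostly favor their inclusion, whereas many HNRNP proteins oppose it, and genes of both families commonly regulate their own mRNA through exons or retained introns that lead to its decay. In blood cancers SF3B1, SRSF2 and U2AF1 are recurrently mutated, and HNRNPH1 is mutated in a share of mantle cell lymphomas.

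Of 8 B cell and mantle cell lymphoma markers, 7 were measured, and over the 12 tumors they ran from 11.86 to 12.59 for MS4A1, which encodes CD20, and from 11.98 to 12.39 for CCND1, down to 6.28 to 6.85 for PAX5. SOX11, a transcription factor that marks mantle cell lymphoma, was at 9.92, 9.89 and 9.51 in the combination tumors, 8.18, 8.50 and 9.23 in the acadesine tumors, 8.68, 7.85 and 8.75 in the rituximab tumors and 8.46, 9.44 and 8.56 in the control tumors. It was highest in the combination tumors and was the 1 marker of the list called higher against acadesine (1.14, adjusted p = 0.0198) and against rituximab (1.35, adjusted p = 0.00574). MS4A1 went the other way, at 11.93, 11.86 and 12.06 in the combination tumors, below every acadesine and control tumor, and was not called. Of the 7 markers, 2 were higher and 5 lower in the combination against acadesine, and 4 higher and 3 lower against control. The mean of the 7 markers relative to the control mean was 0.13, 0.04 and 0.08 in the combination tumors, 0.02, −0.03 and 0.08 in the acadesine tumors, −0.09, −0.12 and −0.05 in the rituximab tumors and −0.11, 0.00 and 0.11 in the control tumors. Skeletal muscle markers, given as the mean of 13 genes relative to the control mean, stood at −0.26, 2.18 and 0.91 in the combination tumors, at 0.03, 0.52 and 0.18 in the acadesine tumors, at −0.19, 0.54 and −0.09 in the rituximab tumors and at 0.03, 0.02 and −0.05 in the control tumors. In the combination 2 of them were called higher against control, 0 against acadesine and 2 against rituximab. The proliferation list of 10 genes stood at 0.14, 0.27 and 0.03 in the combination tumors, −0.12, −0.08 and 0.02 in the acadesine tumors, 0.00, −0.10 and −0.08 in the rituximab tumors and 0.07, 0.06 and −0.13 in the control tumors. Of this list, MKI67 and TOP2A were called higher in the combination against acadesine and against rituximab, and 1 gene against control. The fibroblast list of 8 genes stood at 0.06, 0.14 and 0.29 in the combination tumors, −0.15, −0.02 and 0.00 in the acadesine tumors, −0.25, −0.18 and −0.15 in the rituximab tumors and −0.06, 0.21 and −0.15 in the control tumors, with COL3A1 called higher in the combination against control and against rituximab and COL1A1 against rituximab. The 6 measured genes of the macrophage list of 7 stood at −0.06, −0.10 and −0.11 in the combination tumors, 0.15, 0.14 and 0.10 in the acadesine tumors, 0.07, −0.02 and −0.08 in the rituximab tumors and 0.08, −0.08 and 0.00 in the control tumors, with none called. The 3 combination tumors lay above all acadesine tumors for the proliferation and fibroblast lists and below all of them for the macrophage list, whereas for muscle the groups overlapped. The macrophage genes, and the fibroblast genes other than COL1A1, mostly lay near or below the array medians of 4.59 to 4.66. Differences of these 2 lists therefore lie near the background of the array. The array is made for human genes and the host is a mouse. The muscle, fibroblast and macrophage lists were therefore not taken as measures of the share of host cells. The difference between the 3′ and 5′ probe sets of actin, a sign of RNA quality, overlapped between the groups (2.06 to 2.49 over the 12 tumors). That of GAPDH was 0.27, 0.28 and 0.35 in the combination tumors, 0.22, 0.19 and 0.24 in the acadesine tumors, 0.21, 0.25 and 0.12 in the rituximab tumors and 0.07, 0.36 and 0.30 in the control tumors, so the combination tumors lay above every acadesine and rituximab tumor and overlapped the control tumors. The part of muscle, proliferation, fibroblasts, macrophages, SOX11 and RNA quality in the results was not tested. For the called members, changes without the 4 tumors highest in muscle markers are given.

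In the combination tumors against the control tumors, 1 of the 71 members passed an adjusted p of 0.05 in limma (1.41%, against 2.47% of all genes), and this was HNRNPA3, which was higher. No member passed in the acadesine or the rituximab tumors against control, where 0.0% of all genes passed in either comparison. Against the acadesine tumors, 4 members passed in the combination tumors (5.63%, against 2.45% of all genes), with HNRNPA3, HNRNPH1 and SRSF1 higher and SNRPG lower. Against the rituximab tumors, HNRNPA3 and HNRNPL were higher in the combination tumors (2.82% of members, against 2.82% of all genes). At an unadjusted p under 0.05 the combination had 11 members against control (15.5%, beside 13.9% of all genes), 18 against acadesine (25.4%, beside 15.3%) and 18 against rituximab (25.4%, beside 14.6%). Bright genes passed more often, and 65 of the 71 members lay at or above the median of all genes by mean level. Among genes at or above that median, 16.9% of members had an unadjusted p under 0.05 against control (beside 21.4% of genes), 27.7% against acadesine (beside 23.2%) and 26.2% against rituximab (beside 23.4%), and those called were 1.54% (beside 4.43%), 6.15% (beside 4.43%) and 3.08% (beside 5.08%). Beside these brighter genes the members' shares were near or below the background. These tumors are bulk samples, so a change in the share of a cell type and a change in RNA per cell cannot be told apart.

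**Figure D1:**
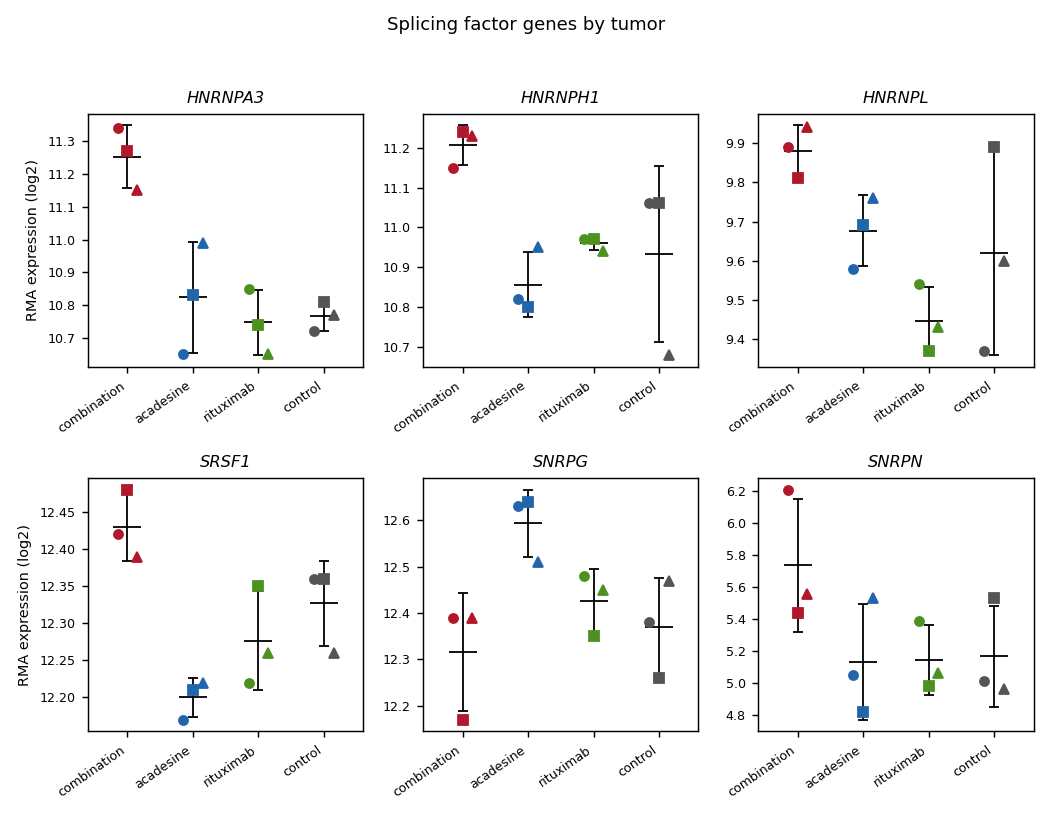
RMA expression (log2, vertical axis, with its own range in each panel) of 6 splicing factor genes in each tumor, by group; circles, squares and triangles are replicates 1, 2 and 3, and bars are mean and SD (n = 3). The 3 combination tumors of HNRNPA3 (11.15 to 11.34) lie above the other 9 tumors (10.65 to 10.99).

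HNRNPA3, an hnRNP of the A/B type that binds RNA in the nucleus and accompanies mRNA to the cytoplasm, had log2 levels of 11.34, 11.27 and 11.15 in the combination tumors. They were 10.65, 10.83 and 10.99 in the acadesine tumors, 10.85, 10.74 and 10.65 in the rituximab tumors and 10.72, 10.81 and 10.77 in the control tumors. The combination tumors did not overlap any other group, while the 3 other groups overlapped one another. The log2 change in the combination was 0.48 against control (SE 0.0871, adjusted p = 0.00434), 0.43 against acadesine (adjusted p = 0.0114) and 0.50 against rituximab (adjusted p = 0.00262). The acadesine tumors differed from control by 0.06 (SE 0.0871, adjusted p = 0.896) and the rituximab tumors by −0.02 (SE 0.0871, adjusted p = 1.0). HNRNPA3 has 3 further probe sets of its own, which changed by 0.28, 0.37 and −0.09 against control, and 2 that it shares with the pseudogene HNRNPA3P1, which changed by 0.17 and 0.06; none of these 5 passed. Averaged over its own probe sets the change was 0.26 (adjusted p = 0.291), with 0.36 against acadesine (adjusted p = 0.123) and 0.38 against rituximab (adjusted p = 0.101), so all 3 calls rest on the brightest probe set. Leaving out the 4 tumors highest in muscle markers left 1 combination tumor. The change was then 0.57 against control, 0.52 against acadesine and 0.59 against rituximab.

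HNRNPH1, an hnRNP of the F/H type that binds runs of G and is mutated in mantle cell lymphoma at sites that control its own splicing, had log2 levels of 11.15, 11.24 and 11.23 in the combination tumors, 10.82, 10.80 and 10.95 in the acadesine tumors, 10.97, 10.97 and 10.94 in the rituximab tumors and 11.06, 11.06 and 10.68 in the control tumors. All 3 combination tumors lay above the other 9. It passed against acadesine (0.35, SE 0.0889, adjusted p = 0.0387), and not against control (0.28, SE 0.0889, adjusted p = 0.115) or rituximab (0.25, SE 0.0889, adjusted p = 0.153). It was measured on 1 probe set.

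SRSF1, the founding SR protein and an oncogene when overexpressed, had log2 levels of 12.42, 12.48 and 12.39 in the combination tumors, 12.17, 12.21 and 12.22 in the acadesine tumors, 12.22, 12.35 and 12.26 in the rituximab tumors and 12.36, 12.36 and 12.26 in the control tumors. The combination tumors were again the 3 highest of the 12, and the acadesine tumors did not overlap the control tumors. The change was 0.23 against acadesine (SE 0.0582, adjusted p = 0.0389), 0.15 against rituximab (adjusted p = 0.204) and 0.10 against control (adjusted p = 0.488). Of its 5 dimmer probe sets, 1 (11727813_a_at) passed against rituximab at 0.53 (adjusted p = 0.0477), and against acadesine the 5 changed by 0.06 to 0.56 with none passing.

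HNRNPL, which binds CA repeats and represses exons such as the variable exons of CD45, had log2 levels of 9.89, 9.81 and 9.94 in the combination tumors and 9.54, 9.37 and 9.43 in the rituximab tumors. The levels were 9.58, 9.69 and 9.76 in the acadesine tumors and 9.37, 9.89 and 9.60 in the control tumors, so that control tumor 2 lay within the combination range. The change was 0.43 against rituximab (SE 0.111, adjusted p = 0.0375) and 0.26 against control (SE 0.111, adjusted p = 0.283). Its other probe set ran the opposite way, at −0.37 against rituximab and −0.45 against control, and the mean of both gave 0.03 against rituximab (adjusted p = 0.951). The call against rituximab was lost without any 1 of the combination tumors (adjusted p from 0.0952 to 0.118) and without rituximab tumor 2 (0.195) or 3 (0.115), and without control tumor 2 the change against control passed (0.40, adjusted p = 0.0456). A probe set shared by HNRNPL and the neighboring gene ECH1, a mitochondrial enzyme of fatty acid oxidation, changed by −0.68 against acadesine (adjusted p = 0.0122), −0.63 against rituximab (adjusted p = 0.0161) and −0.44 against control (adjusted p = 0.119), and its signal cannot be assigned to either gene.

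SNRPG encodes SmG, 1 of the Sm ring proteins that all major snRNPs except U6 carry. Its log2 levels were 12.39, 12.17 and 12.39 in the combination tumors, 12.63, 12.64 and 12.51 in the acadesine tumors, 12.48, 12.35 and 12.45 in the rituximab tumors and 12.38, 12.26 and 12.47 in the control tumors. It was lower in the combination than in acadesine (−0.27, SE 0.07, adjusted p = 0.0434), where the groups did not overlap, and lay close to control in the combination (−0.05, SE 0.07, adjusted p = 0.851), with acadesine at 0.22 above control (adjusted p = 0.564). Without acadesine tumor 1 none of the 4 calls against acadesine held (adjusted p from 0.0889 for HNRNPA3 to 0.172 for SNRPG), and the same was true without combination tumor 1 (0.0669 to 0.109) and without combination tumor 2 (0.0634 to 0.263). Those of HNRNPH1, SRSF1 and SNRPG were also lost without acadesine tumor 2 (0.091 to 0.144) and without rituximab tumor 3 (0.0523 to 0.0587), that of SRSF1 without acadesine tumor 3 (0.0609), and those of HNRNPH1 and SRSF1 without combination tumor 3 (0.0962 and 0.0519). In the fit without the 4 tumors highest in muscle markers, 1 combination tumor was left. The changes were then 0.27 for HNRNPH1, 0.22 for SRSF1 and −0.17 for SNRPG against acadesine, and 0.41 for HNRNPL against rituximab.

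The promoter sequences of the called members with 1 or 2 start sites are shown because the HNRNP genes shared a pattern of levels that is described next. They are the 120 bases before the start of transcription in RefSeq, build GRCh38.p14, written 5′ to 3′ on the strand of the gene, with CCAAT boxes (CCAAT or ATTGG) and E-boxes (CACGTG) in capitals. The lines hold, in order, chr2:177212674-177212793 on the plus strand, chr19:38852348-38852467 and chr19:38849987-38850106 on the minus strand for the 2 starts of HNRNPL, and chr17:58007247-58007366 on the minus strand.
HNRNPA3: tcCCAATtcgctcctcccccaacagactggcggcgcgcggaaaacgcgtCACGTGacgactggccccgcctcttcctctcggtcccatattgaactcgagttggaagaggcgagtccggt
HNRNPL, start 1: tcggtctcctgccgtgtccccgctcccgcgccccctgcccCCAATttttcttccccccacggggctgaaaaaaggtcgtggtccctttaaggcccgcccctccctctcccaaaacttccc
HNRNPL, start 2: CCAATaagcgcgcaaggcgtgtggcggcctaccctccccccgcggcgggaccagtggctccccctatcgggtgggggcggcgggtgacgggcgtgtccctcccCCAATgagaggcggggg
SRSF1: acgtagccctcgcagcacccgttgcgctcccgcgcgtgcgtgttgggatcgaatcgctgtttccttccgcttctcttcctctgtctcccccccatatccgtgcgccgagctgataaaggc

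HNRNPA3 held a CCAAT box that begins 118 bases before the start and an E-box that begins 71 bases before it, and the SRSF1 stretch held neither. HNRNPH1 and SNRPG, called members that are not shown because they have more start sites, held neither within 250 bases before any listed start. Over 250 bases before any listed start, on both strands, a CCAAT box was present in 18 of the 22 HNRNP genes with a promoter in the table (81.8%), in 32 of the 64 members with one (50.0%) and in 37.0% of all 27305 genes. An E-box was present in 6 of the 22 HNRNP genes (27.3%), in 7 of the 64 members (10.9%) and in 7.73% of all genes. The ETS motif CCGGAAGT, which does not overlap either, was present in 14 of the 64 members (21.9%), in 1 HNRNP gene, HNRNPD, and in 4.13% of all genes. The NRF1 motif, the CRE TGACGTCA and the YY1 motif AAGATGGCG were in 0 of the 64 members, beside 1.28%, 2.03% and 0.784% of all genes. The median GC content was 61.6% in promoters of members and 58.0% in all promoters. These matches describe letters in the sequence, and genes with several starts had more windows to match. Counted by promoter, a CCAAT box was in 20 of 33 HNRNP promoters, beside 32.0% of all 35116 promoters.

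The mean level of the HNRNP family was higher in each combination tumor than in each acadesine tumor. The family mean over its 23 genes, relative to the control mean, was 0.01, 0.10 and 0.00 in the combination tumors, −0.16, −0.12 and −0.07 in the acadesine tumors, −0.09, 0.01 and −0.08 in the rituximab tumors and 0.03, 0.04 and −0.07 in the control tumors. The 3 combination tumors lay above the 3 acadesine tumors and within or near the range of the control tumors, and 2 of the 3 rituximab tumors lay below the control range. Proliferation and fibroblast lists and the GAPDH difference were likewise higher, and the macrophage list lower, in each combination tumor than in each acadesine tumor, and their part was not tested. Signals of the fibroblast and macrophage lists were mostly near the background of the array. The within-group SD of a single gene had a median of 0.116 over the members and 0.16 over all genes.

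**Figure D2:**
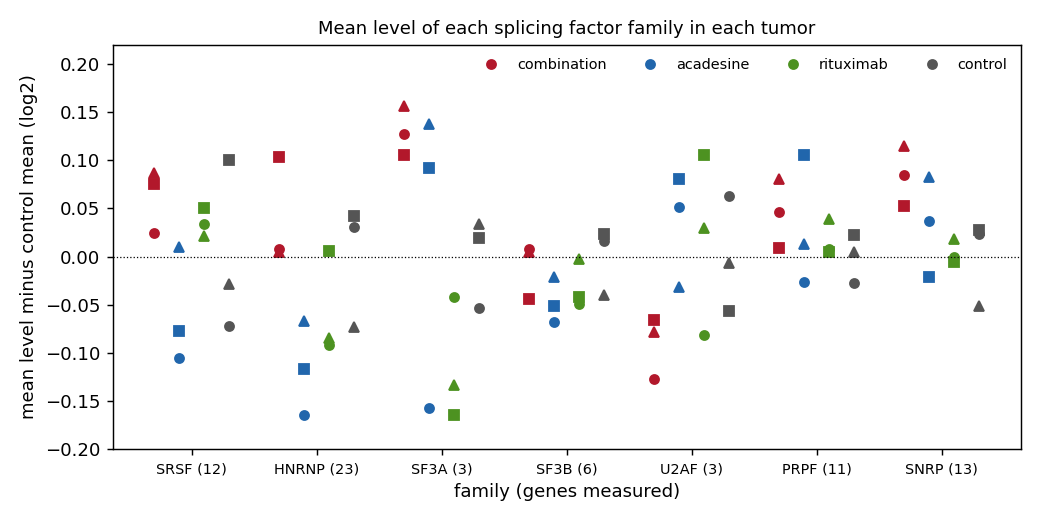
Mean log2 level of each family in each tumor minus the mean of the control tumors (vertical axis), with families on the horizontal axis and the number of genes in brackets; circles, squares and triangles are replicates 1, 2 and 3. For HNRNP the combination tumors lie between 0.00 and 0.10 and the acadesine tumors between −0.16 and −0.07.

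Gene by gene, 22 of the 23 HNRNP genes were on the higher side in the combination against acadesine, with a median of 0.11, beside 47.3% of all genes and a median of −0.01. Other sets shifted likewise, with 16 of 19 SR-related proteins (median 0.18) and 11 of 12 SRSF genes (0.13) higher. So did 10 of 12 SR protein kinases and phosphatases (0.14) and 34 of 46 other RNA-binding regulators (0.13). Medians were below 0 for the lists of tri-snRNP and snRNP proteins (−0.02), PRP19 complex partners (−0.04), minor spliceosome (−0.01) and snRNP assembly (−0.08). The groups did not overlap for 10 of the 23, all higher in the combination, beside 9.66% of all genes that were separate in that direction (10 of the 20 at or above the median level, beside 14.0% of genes there); lower, it was 0 of the 23 and 5 of the 71 members, beside 10.8%. Among them, besides HNRNPA3 and HNRNPH1, were HNRNPH3 (0.26, adjusted p = 0.157) and HNRNPA0 (0.25, adjusted p = 0.163), which did not pass. HNRNPA0, a single-exon hnRNP that binds AU-rich mRNA, had log2 levels of 10.42, 10.53 and 10.53 in the combination tumors, against 10.28, 10.07 and 10.38 in the acadesine tumors and 10.43, 10.44 and 10.41 in the control tumors. Against rituximab, 19 of the 23 HNRNP genes were on the higher side in the combination with a median of 0.07, and 6 were separate and higher, beside 10.4% of all genes. None of the 23 was separate and lower against rituximab, beside 9.8% of all genes.

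Against control the same family was balanced in the combination, with 12 genes on the higher side, 11 on the lower and a median of 0.02. Groups did not overlap for 7 members higher and 5 lower among all 71 in this comparison, beside 9.42% and 9.08% of all genes, which is close to the background. In the acadesine tumors against control, 18 of the 23 HNRNP genes were on the lower side with a median of −0.11, and in the rituximab tumors 19 of 23 with a median of −0.04; both comparisons share their control tumors with the combination. The members with the smallest p in acadesine were HNRNPH2 (−0.35, SE 0.10) and HNRNPH3 (−0.32, SE 0.0943), both relatives of HNRNPH1, followed by SNRPG (0.22), SNRPB (0.20) and HNRNPD (−0.22), with adjusted p from 0.564 to 0.595. At an unadjusted p under 0.05, 9 members (12.7%) stood out in acadesine, beside 7.8% of all genes, and 7 (9.86%) in rituximab, beside 4.21%. The groups did not overlap for 3 members higher and 6 lower in acadesine, beside 6.9% and 5.96% of all genes, and for 2 higher and 5 lower in rituximab, beside 4.38% and 4.56%.

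HNRNPH3 had log2 levels of 10.93, 11.19 and 11.06 in the combination tumors, 10.69, 10.81 and 10.89 in the acadesine tumors, 10.91, 10.93 and 10.86 in the rituximab tumors and 10.98, 11.35 and 11.01 in the control tumors. The acadesine and the rituximab tumors both lay below all control tumors, and the combination tumors overlapped the control tumors. HNRNPH2 lay at 10.33, 10.44 and 10.45 in the combination tumors, 10.36, 10.21 and 10.33 in the acadesine tumors and 10.27, 10.73 and 10.62 in the rituximab tumors, against 10.70, 10.70 and 10.55 in the control tumors. For this gene the combination was also below control (−0.24, SE 0.10, adjusted p = 0.262), and a dimmer probe set of it passed at −0.55 (adjusted p = 0.0355).

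In the rituximab tumors the smallest p values belonged to HNRNPUL2 (−0.27, SE 0.0878), SRSF12 (0.38, SE 0.135), PRPF38B (0.31, SE 0.124), PRPF39 (0.43, SE 0.18) and SF3A1 (−0.22, SE 0.0911), all with an adjusted p of 1.0. HNRNPUL2, which resembles the nuclear scaffold protein HNRNPU, had log2 levels of 9.70, 9.56 and 9.61 in the rituximab tumors, all below the 9.80, 9.90 and 9.98 of the control tumors. SRSF12 had a mean signal of 3.95, at or below the median of the array, as had HNRNPCL1, HNRNPCL2, HNRNPLL and SNRPD2P2, so differences of these 5 genes lie near the background of the array.

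**Figure D3:**
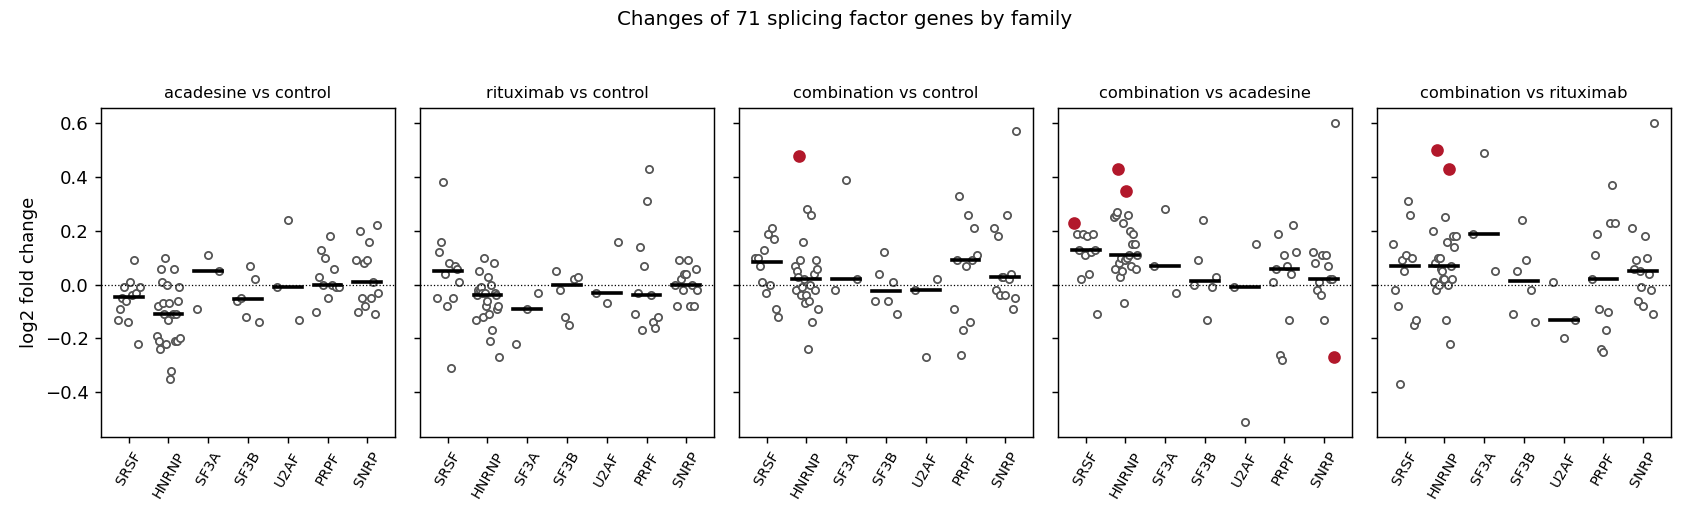
Log2 fold change of each of the 71 genes (vertical axis) by family in 5 comparisons; open circles did not pass an adjusted p of 0.05, filled circles did, and thick lines are family medians. In the panel of combination against acadesine, 22 of the 23 HNRNP genes and 11 of the 12 SRSF genes lie above 0.

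The departure of the combination from the sum of the changes in the 2 single-agent groups was tested as an interaction. No member passed, beside 0.28% of all genes in either direction and 0.203% as higher. An unadjusted p under 0.05 was found for 15 of the 71 (21.1%), beside 10.8% of all genes. At or above the median level it was 23.1% of members, beside 16.5% of genes. The HNRNP genes had a median departure of 0.21 with 21 of 23 above 0, where all genes had a median of −0.01 with 47.8% above 0. This departure uses the same tumors as the comparisons above and is not a separate result, and the genes of a family are not replicates. The smallest p values belonged to HNRNPA3 (0.45, SE 0.123, adjusted p = 0.133), HNRNPH3 (0.48, SE 0.133), SRSF1 (0.28, SE 0.0823), SNRPG (−0.33, SE 0.099) and HNRNPUL2 (0.38, SE 0.124), with adjusted p up to 0.217. HNRNPA3 passed this test only without acadesine tumor 3 (0.53, adjusted p = 0.0434).

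Among the SRSF genes, 9 of 12 were on the higher side in the combination against control (median 0.09) and 11 of 12 against acadesine (median 0.13), with 1 passing, SRSF1. Against control the changes of the classical SR proteins were 0.13 for SRSF2 (SE 0.0838), which binds exonic enhancers and is a target of mutation in myeloid cancers, −0.03 for SRSF3, the smallest of them, 0.19 for SRSF4, 0.21 for SRSF6 and 0.17 for SRSF7. SRSF9 was the member of the family with the smallest p there (−0.12, SE 0.0547, adjusted p = 0.338), at 12.55, 12.66 and 12.67 in the combination tumors and 12.78, 12.75 and 12.70 in the control tumors. The remaining members changed by −0.09 (SRSF8), 0.10 (SRSF10), 0.07 (SRSF11), 0.01 (SRSF12) and 0.00 (SRSF5), all with an adjusted p of at least 0.775.

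Among the SF3A, SF3B and U2AF genes, which act at the branch point and 3′ splice site, none passed the threshold in any comparison on its brightest probe set. SF3B1, which contacts the branch point adenosine, had log2 levels of 11.65, 11.67 and 11.66 in the combination tumors, 11.63, 11.68 and 11.69 in the acadesine tumors, 11.63, 11.82 and 11.85 in the rituximab tumors and 11.65, 11.90 and 11.60 in the control tumors. These ranges overlapped in every pair of groups, and the change in the combination was −0.06 (SE 0.0773). The other SF3B genes changed by 0.04 (SF3B2), 0.12 (SF3B3), −0.06 (SF3B4), 0.01 (SF3B5) and −0.11 (SF3B6, which contacts the branch point) against control. SF3A1 and SF3A3 changed by −0.02 and 0.02, whereas SF3A2, which binds the U2 snRNP beside them, had log2 levels of 7.07, 7.01 and 7.22 in the combination tumors, against 6.57, 6.75 and 6.81 in the control tumors. The SF3A2 groups did not overlap, at a change of 0.39 (SE 0.157, adjusted p = 0.236).

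Of the U2AF genes, U2AF1 (−0.02, SE 0.0568), which reads the AG of the 3′ splice site, and U2AF2 (0.02, SE 0.127), which binds the polypyrimidine tract, lay near 0 in the combination against control. U2AF1L4, a paralog of U2AF1, had log2 levels of 8.08, 7.89 and 7.93 in the combination tumors, 8.60, 8.62 and 8.20 in the acadesine tumors, 8.07, 8.22 and 8.22 in the rituximab tumors and 8.24, 8.01 and 8.47 in the control tumors. The combination tumors lay below all acadesine tumors (−0.51, SE 0.139, adjusted p = 0.0554) and overlapped the other groups. This change passed without acadesine tumor 3 (−0.64, adjusted p = 0.0186), control tumor 2 (adjusted p = 0.0371) or control tumor 3 (adjusted p = 0.0496). On a further probe set of U2AF1L4 (11754867_x_at) the levels were 7.52, 7.26 and 7.30 in the combination tumors, below all other tumors, and this probe set passed against acadesine (−0.71, adjusted p = 0.0122) and against control (−0.57, adjusted p = 0.0437).

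No PRPF gene passed in any comparison. PRPF8, which cradles the catalytic center, changed by 0.11 in the combination against control (SE 0.107, adjusted p = 0.738). The PRPF genes with the smallest p were PRPF31 (−0.26, SE 0.105, adjusted p = 0.251), which joins U4/U6 to U5, and PRPF3 (0.33, SE 0.145, adjusted p = 0.308), which sits in the U4/U6 particle, and they pointed in opposite directions. PRPF31 had log2 levels of 9.08, 8.89 and 9.28 in the combination tumors and 9.31, 9.29 and 9.41 in the control tumors. PRPF38A, a factor of spliceosome activation, was at 8.73, 8.74 and 8.90 in the combination tumors, lower than in every tumor of the acadesine (9.02, 9.10 and 9.08), rituximab (9.04, 9.06 and 9.01) and control groups (9.04, 8.93 and 8.92). Its change was −0.17 against control (adjusted p = 0.475) and −0.28 against acadesine (adjusted p = 0.157).

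Of the SNRP genes, SNRPB, which encodes the Sm proteins B and B′, had log2 levels of 12.36, 12.37 and 12.29 in the combination tumors and 12.36, 12.03 and 12.10 in the control tumors (0.18, SE 0.0712, adjusted p = 0.243), and control tumor 1, without which it passed (0.28, adjusted p = 0.0366), lay within the combination range. SNRPA, a specific protein of the U1 snRNP, was at 9.91, 9.94 and 9.94 in the combination tumors and 9.69, 9.78 and 9.69 in the control tumors, with no overlap (0.21, SE 0.10, adjusted p = 0.355). SNRPN, an imprinted gene that encodes a tissue-restricted counterpart of SmB, had log2 levels of 6.21, 5.44 and 5.56 in the combination tumors, 5.05, 4.82 and 5.53 in the acadesine tumors, 5.39, 4.98 and 5.06 in the rituximab tumors and 5.01, 5.53 and 4.96 in the control tumors. Combination tumor 1 stood highest, and the groups overlapped (0.57, SE 0.224, adjusted p = 0.225). Its second probe set passed against rituximab (0.88, adjusted p = 0.0152) and not against control (0.72, adjusted p = 0.0509), and the 3 probe sets that SNRPN shares with SNURF, a protein encoded on the same mRNA, changed by 0.20, 0.08 and −0.01 against control.

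Splicing factor genes produce several mRNA forms, and on this array many of them are read by more than 1 probe set. In part of the HNRNP family, probe sets of the same gene gave different changes. Of the 63 further HNRNP probe sets, 8 (12.7%) had a change in the combination against control more than 0.5 above that of the gene's brightest probe set, beside 1.92% of the 27020 further probe sets of all genes. The 8 came from 6 genes, HNRNPM and HNRNPD having 2 each, so they are not 8 separate results. In the opposite direction 2 of the 63 lay more than 0.5 below (3.17%, beside 2.13% of all genes), 1 of HNRNPA3 and 1 of HNRNPL. The same count above 0.5 was 2 of 63 against acadesine (beside 1.88%) and 3 of 63 against rituximab (beside 1.65%).

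HNRNPM, which binds GU-rich sequences and represses or enhances exons, was read by 4 probe sets of its own. The 2 brightest gave changes of 0.04 (SE 0.0666) and 0.04 (SE 0.0776) in the combination against control. On the probe set 11761514_at the log2 levels were 10.58, 10.64 and 10.36 in the combination tumors, 9.78, 10.47 and 9.78 in the acadesine tumors, 9.89, 9.52 and 9.67 in the rituximab tumors and 9.64, 9.40 and 9.68 in the control tumors. The combination tumors lay above all rituximab and control tumors, and acadesine tumor 2, also among the 4 tumors highest in muscle markers, lay within their range. The change was 0.95 (SE 0.146, adjusted p = 0.0013), and on 11761516_x_at it was 0.65 (SE 0.126, adjusted p = 0.00919). Against rituximab both passed as well (0.83, adjusted p = 0.00396, and 0.61, adjusted p = 0.0128), and against acadesine neither did (0.51, adjusted p = 0.0878, and 0.42, adjusted p = 0.112). The mean over the 4 probe sets gave a gene-level change of 0.42 against control (adjusted p = 0.0343).

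SRSF5, an SR protein whose mRNA is known to be alternatively spliced, had 11 probe sets with changes of both signs. On 11760894_s_at the log2 levels were 9.31, 8.96 and 8.92 in the combination tumors, 8.68, 8.71 and 8.76 in the acadesine tumors, 9.04, 8.48 and 8.46 in the rituximab tumors and 8.43, 8.46 and 8.43 in the control tumors, a change of 0.62 against control (SE 0.141, adjusted p = 0.0245). The brightest probe set of the gene gave 0.00 (SE 0.143), and 4 others gave −0.41, −0.38, −0.30 and −0.32, none of which passed (adjusted p from 0.271 to 0.443).

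HNRNPA1, an abundant hnRNP of the A/B type, had 1 probe set that passed (11760085_s_at, 0.48, SE 0.117, adjusted p = 0.0377), with log2 levels of 10.78, 10.31 and 10.36 in the combination tumors and 10.00, 10.08 and 9.94 in the control tumors, while its brightest probe set changed by −0.02 (SE 0.0495). Single probe sets of HNRNPDL (0.82, adjusted p = 0.0946), HNRNPA2B1 (0.62, adjusted p = 0.108) and HNRNPR (0.57, adjusted p = 0.251) and 2 of HNRNPD (0.68 and 0.63) had the same direction and did not pass, while the brightest probe sets of these genes lay between −0.07 and 0.03. HNRNPDL, a paralog of HNRNPD whose mRNA carries a regulated exon in its 3′ end, was at 7.91, 7.93 and 7.75 on this probe set in the combination tumors, above the control tumors (6.89, 7.20 and 7.04), and overlapped the acadesine tumors (6.59, 7.24 and 7.90). Over all comparisons with control, 5 of the 229 members' probe sets passed as higher in the combination (2.18%, beside 0.65% of all single-gene probe sets) and 2 as lower (0.873%, beside 0.864%), and none in acadesine or rituximab (beside 0.0% in each). Those higher were 2 of HNRNPM and 1 each of HNRNPA1, HNRNPA3 and SRSF5. Bright genes passed more often, and the share among probe sets of like level was not computed. The position of the probes in each transcript is not used here, so the mRNA forms behind these probe sets are not named.

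**Figure D4:**
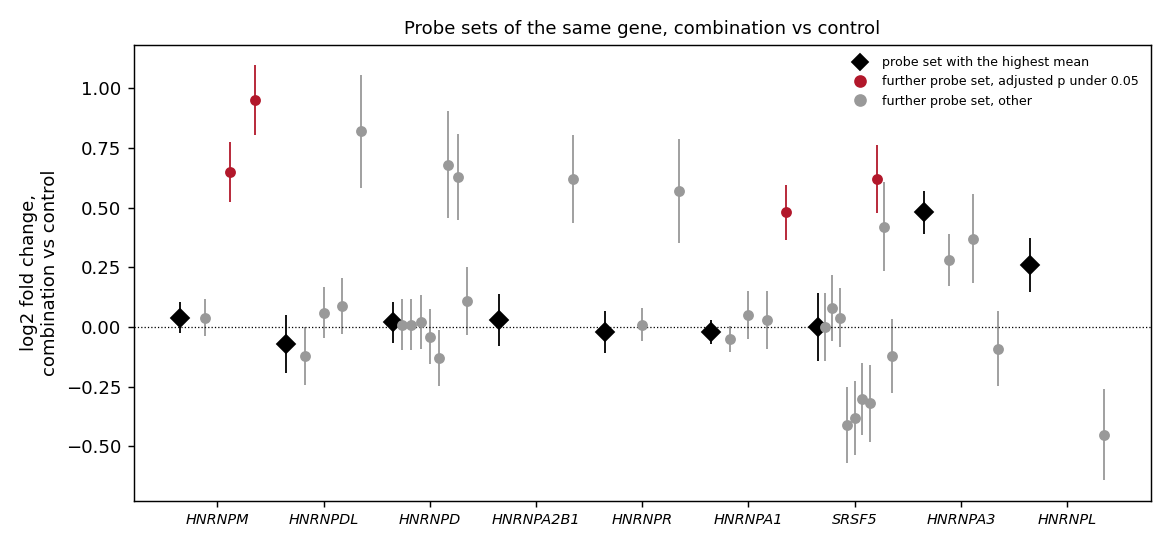
Log2 fold change in the combination against control (vertical axis, bars are SE) for each probe set of 9 genes, ordered within a gene from the brightest on the left; diamonds mark the brightest probe set and filled red circles the further probe sets with an adjusted p under 0.05. HNRNPM has 2 probe sets at 0.04 and 2 at 0.65 and 0.95.

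Other genes of the splicing machinery, 174 genes in 10 lists, gave few calls. In the combination against control 3 were higher and 0 lower (median 0.04, beside 1.14% of all genes called higher), against acadesine 5 and 0 (median 0.08, beside 1.31%), and against rituximab 4 and 0 (median 0.04, beside 1.51%), while neither single agent gave a call. In these comparisons, in that order, 243, 207 and 239 of all 18239 genes were called lower. Among the 9120 genes at or above the median level, 169, 206 and 231 were called higher. With so few calls among the 174, no direction was read from them. The largest of the 3 changes against control was that of RBFOX2, a regulator that binds GCAUG and directs tissue-specific exons, at 5.36, 5.48 and 5.54 in the combination tumors, 4.80, 5.22 and 5.05 in the acadesine tumors, 5.17, 4.55 and 4.78 in the rituximab tumors and 4.16, 4.71 and 4.73 in the control tumors (0.93, SE 0.189, adjusted p = 0.01). LUC7L3, a U1 snRNP partner, was at 12.08, 11.91 and 11.69 in the combination tumors and 11.54, 11.70 and 11.41 in the control tumors, which overlapped (0.34, SE 0.0903, adjusted p = 0.0466).

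EIF4A3, the helicase core of the exon junction complex, was at 11.84, 11.78 and 11.85 in the combination tumors, above the 11.57, 11.56 and 11.51 of the control tumors and above all tumors of the single-agent groups (0.27, SE 0.0695, adjusted p = 0.0383). SRRM2, a scaffold of nuclear speckles, passed against rituximab (0.61, adjusted p = 0.0125) and not against control (0.30, adjusted p = 0.28). RBM6 passed against both acadesine (0.65, adjusted p = 0.0371) and rituximab (0.65, adjusted p = 0.0348), with 7.82, 8.06 and 8.02 in the combination tumors and 7.25, 7.65 and 7.30 in the control tumors. RBM20, a regulator of titin splicing in heart and skeletal muscle, passed against acadesine (0.51, adjusted p = 0.047) and not against control (0.37, adjusted p = 0.188), where control tumor 2, at 9.02, lay beside the combination tumors at 9.03, 9.03 and 9.09. PHF5A, a small partner of SF3B that holds the branch point with it, passed against rituximab alone among the 3 comparisons of the combination (0.38, adjusted p = 0.0229). SFSWAP, an SR-related regulator of splicing, passed against acadesine (0.42, adjusted p = 0.0324), at 9.40, 9.20 and 9.17 in the combination tumors and 8.76, 8.89 and 8.85 in the acadesine tumors. NOVA1, a regulator known from neurons, also passed against acadesine (0.55, adjusted p = 0.047), at 4.55, 4.79 and 4.21 in the combination tumors and 3.74, 3.99 and 4.16 in the acadesine tumors, a dim signal. SNU13, a protein of the U4 snRNP, passed against rituximab (0.28, adjusted p = 0.0375), at 11.36, 11.35 and 11.36 in the combination tumors and 11.19, 10.99 and 11.06 in the rituximab tumors.

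**Figure D5:**
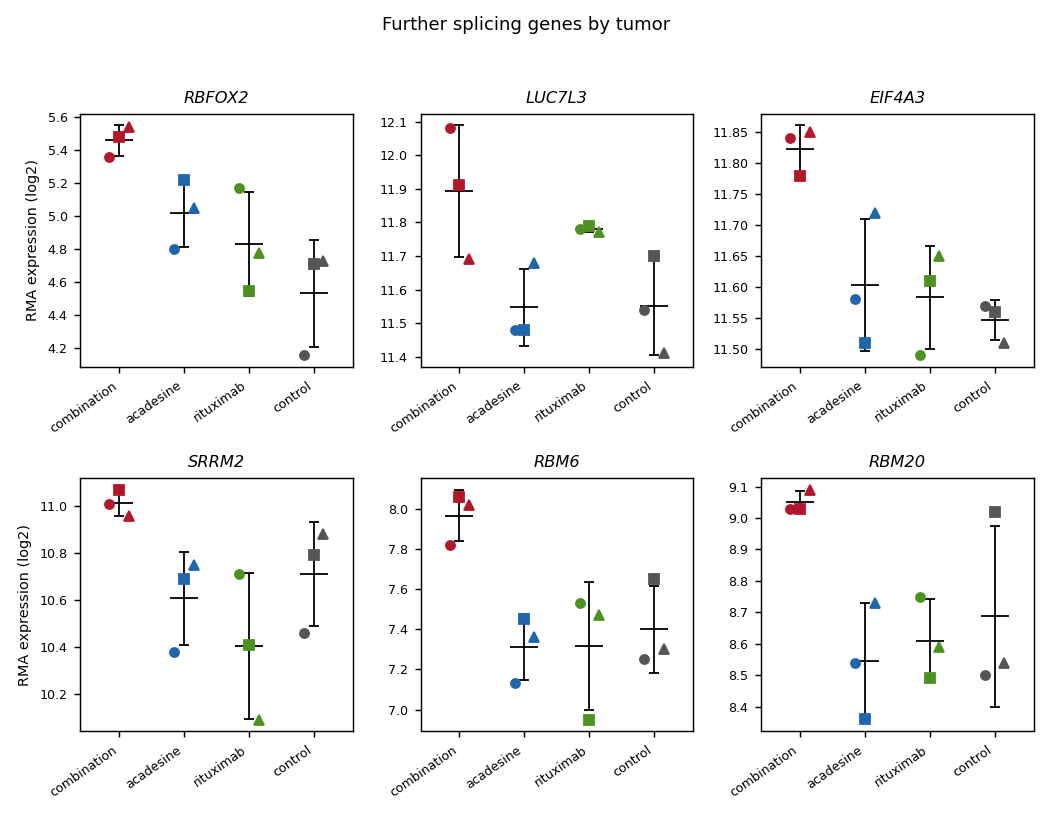
RMA expression (log2, vertical axis, with its own range in each panel) of 6 splicing genes outside the families in each tumor, by group; circles, squares and triangles are replicates 1, 2 and 3, and bars are mean and SD (n = 3). For EIF4A3 the combination tumors (11.78 to 11.85) lie above the other 9 tumors.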

How the data were processed

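Tumor RNA was hybridized to 12 Affymetrix HT HG-U219 arrays, 3 per group. The authors background-corrected, quantile normalized and summarized the arrays with RMA, and the deposited values are log2 expression per probe set. Of 49386 probe sets, 45259 were annotated to 1 gene, and the probe set with the highest mean was kept for each of 18239 genes. One model with 4 groups was fitted over all genes with limma 3.58.1 in R 4.3.3 (lmFit and eBayes with an intensity trend). Adjusted p-values are Benjamini-Hochberg over all genes, two-sided, with a threshold of 0.05; those of further probe sets are over the fit of all single-gene probe sets, and those of shared probe sets over all probe sets. limma stands in for the Rank Products test of the methods, whose thresholds (0.2 and a fold of 1.4) were an alternative. The steps were tested on simulated data.

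The members and lists were chosen with earlier results of these data known. Named genes are those past the threshold, the 5 smallest p per comparison, all SRSF, SF3A, SF3B and U2AF genes, the 3 smallest p per family in combination against control, genes mutated in blood cancers, genes whose probe sets differ by over 0.5, and other splicing genes that passed against control; SRRM2, RBM6, RBM20, PHF5A, SFSWAP, NOVA1, SNU13, HNRNPA0 and PRPF38A were added after their values were seen. The number of arrays limits the precision. Promoters are from RefSeq (GRCh38.p14), matched for 64 of 71 members.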

Additional observations from a re-analysis of the deposited data

Results flagged for a closer look

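One probe set outside the main measurement carried a signal above the control tumors. It is annotated to both DYNC1I2, a dynein subunit, and HNRNPM, and stood at 11.97, 12.07 and 11.77 in the combination tumors, 11.19, 11.70 and 11.35 in the acadesine tumors, 11.70, 10.99 and 11.14 in the rituximab tumors and 11.09, 11.21 and 11.37 in the control tumors. The change in the combination against control was 0.71 (limma, SE 0.139, adjusted p = 0.00891), beside 0.95 and 0.65 on the dimmer HNRNPM probe sets. Which of the 2 genes gives the signal was not tested. Groups of 3 tumors are too small for the check of single outlying samples.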

How the results depend on the processing

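The number of members called (1 against control, 4 against acadesine and 2 against rituximab, all in the combination) was recomputed under 26 alternatives, 2 of which, on muscle markers, were chosen after seeing the data. Averaging the probe sets of a gene gave 2 against control (HNRNPM and SNRPN) and 0 against acadesine. Testing every probe set gave 6, 2 and 4. Without the intensity trend there were 0 against acadesine and 1 against rituximab, and with centering on the median 2 against acadesine. Without the 4 tumors highest in muscle markers 1 combination tumor was left, so calls of that fit are not given. With the muscle level fitted as a covariate there were 1 against control, 1 against acadesine and 1 against rituximab. Of all genes, 171, 242 and 216 were called in that fit, beside 451, 446 and 515 in the main fit. At an adjusted p under 0.2 and a fold over 1.4 there were 0 against control and 2 against acadesine (SNRPN and U2AF1L4). Leaving out 1 tumor at a time gave 1 to 2 against control, 0 to 5 against acadesine, 1 to 2 against rituximab and 0 to 1 for the interaction. Against acadesine it was 0 without acadesine replicate 1 and without combination replicate 1 or 2. Of all genes, 139, 212 and 112 were called there, beside 446 in the main fit. HNRNPA3 against control passed in all 12 fits that left out 1 tumor (adjusted p from 0.00258 to 0.0304), and against acadesine in 9. With the replicate number as a block the counts were 1, 4 and 2, unchanged, while those of all genes rose from 451, 446 and 515 to 481, 470 and 532. Deviations from the group means had correlations from −0.121 to 0.19 in same-numbered tumors and from −0.239 to 0.147 in other pairs. Between acadesine and combination tumors they were 0.07 to 0.19 at the same number and −0.15 to 0.02 otherwise. The 2 ranges over all groups overlapped, and the numbers were not read as pairs. Over 64 gene results and these settings, 1582 of 1661 values kept their direction where called and their side of the threshold, 63 lost a call, 16 gained one and 0 reversed. Most of the 64 were not called in the main fit and so had no call to lose. By an adjusted p under 0.05 alone, HNRNPA3 passed in 24 of the 26 settings against control, 20 against acadesine and 24 against rituximab. HNRNPH1 passed in 14, SNRPG in 14 and SRSF1 in 13 against acadesine, and HNRNPL in 16 against rituximab. These counts leave the fold threshold out. In the setting with a fold over 1.4, only HNRNPA3 against rituximab was still called among these results. The causes were not tested. With 3 tumors per group, an exact permutation test of 1 gene cannot go below 0.1.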
